A study of Mus musculus with 6 samples.

Results

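The 39 genes described here belong to the integrated stress response and to the amino acid supply it governs: ATF4 with its partner factors and linked stress genes, the enzymes that make serine, glycine, asparagine and proline, and 12 tRNA synthetases. They were chosen by name, and 38 of them reached the required level of at least 1 CPM in 3 or more libraries, out of 10590 such genes among 25655 listed. CPM is a gene's reads scaled to the same total in every library. The one named gene below that level was Slc7a11, which encodes the cystine transporter and had 1 read in each of the 6 libraries. The members just inside it were Atf3, at that level in 4 libraries, and Nupr1, in 5.

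CD8 T cells from spleens of C57BL/6 females were compared between wild type (WT) and knockout of Utx (Utx KO), the histone H3K27 demethylase that the gene Kdm6a encodes. Cells of both genotypes started naive. They were stimulated for 2 days on immobilized antibodies, 3 µg/ml against TCR-beta plus 1 µg/ml against CD28, in medium with 10 ng/ml interleukin 2, and then held in the same dose of interleukin 2 for 3 days, so that all RNA comes from day 5. Each genotype had 3 biological replicates. The labels give neither the design of the knockout allele nor any Cre driver, the age of the mice, or whether replicates are separate animals, so that p-values reflect only how far these samples vary.

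Library totals ran from 1619085 to 2529113 reads. Libraries were made from transcript 3' ends, so a value does not grow with gene length. Values are given in the order of replicates 1, 2 and 3 of a genotype. By that order Kdm6a had 44.3, 49.3 and 53.6 CPM in WT, against 27.8, 39.4 and 31.5 CPM in Utx KO (limma adjusted p = 0.0123). A 3' read outside the deleted part does not check the labels. The 7 markers of CD8 T cells summed to 2534 to 2677 CPM in WT, against 2599 to 2651 CPM in Utx KO. Within that sum single markers differed in both directions by the limma test. Cd3d, Cd3e and Cd8b1 rose (adjusted p = 0.000224, 0.0085 and 0.0318). Thy1 fell from a mean of 745 to 563 CPM (2.69e-06) and Cd2 from 417 to 338 CPM (0.00147). The 4 markers of CD4 T cells summed to 11.5 to 17.5 CPM in WT, against 11.1 to 13.5 CPM in Utx KO. Among them Cd4 was at 0 in all libraries, while Foxp3 and Zbtb7b had reads in every library. Of the B-cell, myeloid and erythroid or platelet markers, 12 of 18 were at 0 in all libraries and the summed level of each of these 3 lists was at most 5.47 CPM in any library. The 5 markers of natural killer cells summed to 262 to 282 CPM in WT, against 177 to 202 CPM in Utx KO. Nearly all of that was Eomes, which CD8 T cells also express. Eomes fell from a mean of 269 to 189 CPM (limma adjusted p = 2.33e-05). The defining marker Ncr1 was at 0 throughout, while Klre1 had 2 to 9 reads in every library. Its mean was 3.17 CPM in WT, against 1.78 CPM in Utx KO. Klrb1c and Tyrobp had at most 3 reads in a library. The part of such marker differences in the results below was not tested.

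The integrated stress response begins with kinases that phosphorylate the translation initiation factor eIF2, among them GCN2 (Eif2ak4), which senses uncharged tRNA, and PERK (Eif2ak3), which senses unfolded protein in the endoplasmic reticulum. Phosphorylated eIF2 lowers most protein synthesis but raises translation of ATF4, a transcription factor that pairs with C/EBP proteins and induces amino acid enzymes, transporters and tRNA synthetases. ATF4 is therefore controlled to a large extent at translation, which RNA levels do not measure. In T cells, activation raises the demand for serine, glycine and one-carbon units.

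In Utx KO cells, part of this set was higher while Atf4 itself showed no detectable difference. Of 38 members tested with limma across all 10590 genes, 8 rose (Atf5, Ddit3, Cebpb, Ddit4, Vldlr, Phgdh, Asns and Sars) and 1 fell (Shmt1). That is 21.1% of members called higher, where 5.28% of all tested genes were called higher, 5.51% lower and 10.8% in either direction. The fitted difference was above 0 for 30 of 38 members (78.9%, against 51.0% of all tested genes), with a median log2 fold change of 0.10, against 0.01 over all tested genes. The groups did not overlap for 15 members (39.5%), 13 of them higher in Utx KO and 2 lower, where 26.5% of all tested genes did not overlap and 14.0% were higher without overlap. Because the RNA is from bulk cultures, a different number of cells carrying a transcript and a different amount per cell cannot be told apart.

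Here a log2 fold change and a fitted log2 difference both mean Utx KO minus WT on the scale of log2(CPM + 1). On whole reads recovered from the CPM values, edgeR's quasi-likelihood test and limma-voom each called 8 members higher and 1 lower of the 36 that passed their filter, where each called 6.18% of all their tested genes higher. DESeq2 called 3 members higher (Ddit3, Vldlr and Sars) and 0 lower, where it called 2.28% of all genes higher. Without Utx KO replicate 2, 5 rose and 0 fell. In that setting limma called 375 of all 10590 tested genes higher and 451 lower, against 559 and 583 with all libraries.

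**Figure D1:**
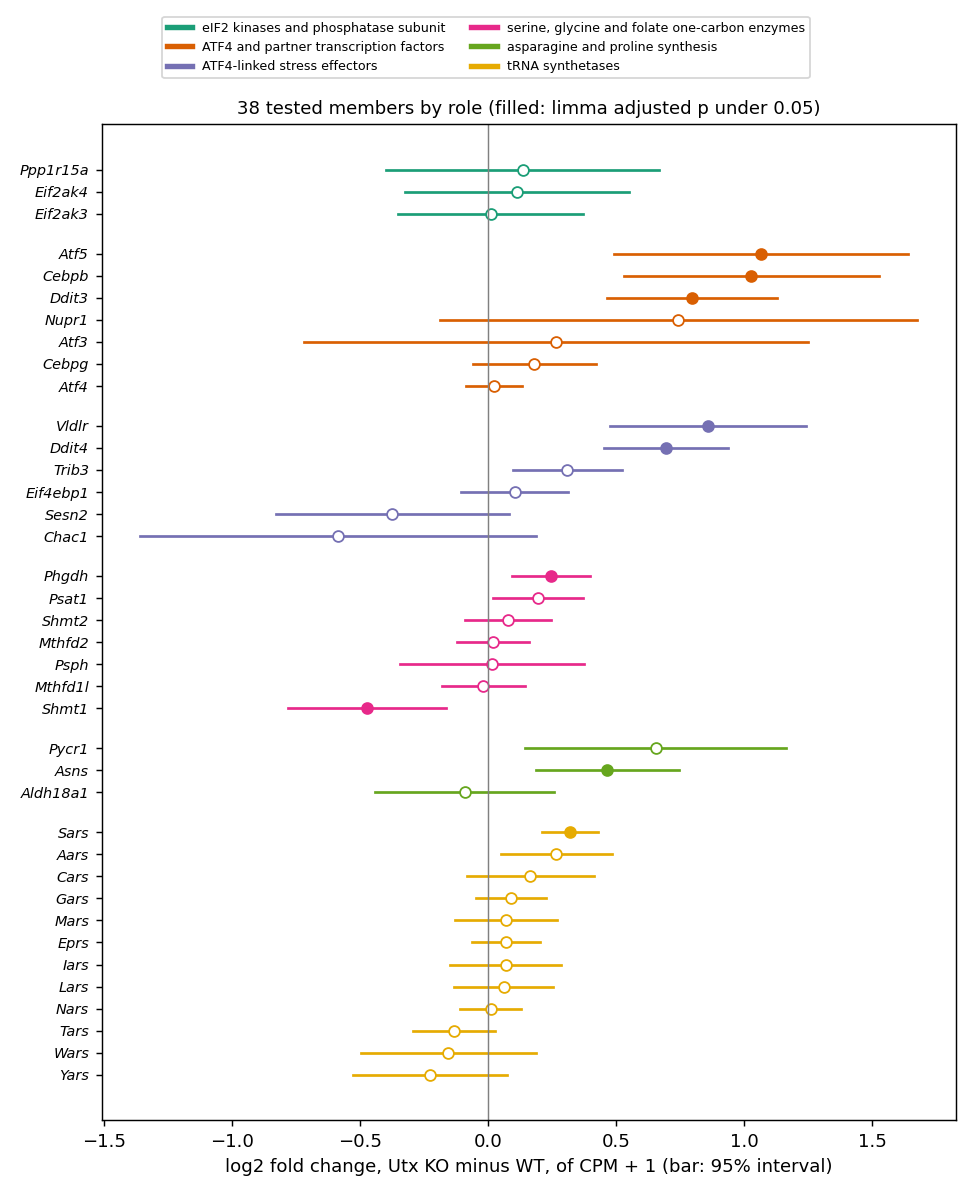
Log2 fold change of CPM + 1 (Utx KO minus WT, x axis) for the 38 tested members, grouped by role on the y axis, with the 95% interval of the limma fit as a bar and filled points for an adjusted p under 0.05. The 8 filled points above 0 lie between 0.24 and 1.07, Shmt1 is the filled point below 0 at −0.47, and Atf4 lies at 0.02.

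The factor ATF4 binds with a C/EBP partner to an element whose core letters are TGATGNAA, where N is any base. These letters were searched on both strands of RefSeq promoter windows (GRCm38.p6, 250 bases before to 50 after a transcript start), which were searched for 32 of the 38 tested members. They occurred in windows of 11 of these 32 members (34.4%), against 2.84% of the 8424 tested genes with a searched window. Per window the shares were 30.6% of 36 windows of members, 2.35% of 10746 windows of tested genes and 3.97% of all 32850 windows searched. The stricter letters TGATGCAA, which are a subset of the first, were in windows of 8 members (25.0%), against 0.783% of tested genes. Many of the members were listed for their link to ATF4, so this is a description of the list and not a test.

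The matched stretches are shown for the 2 carriers that rose (Vldlr and Asns), for 3 whose fitted values were higher but did not pass the test (Pycr1, Nupr1 and Atf3) and for Chac1 and Tars, whose fitted values were lower. Each runs 5′ to 3′ along the gene's strand, lies before the RefSeq start and carries the matched letters in capitals; where the match is on the other strand, the capitals show its reverse complement.
Vldlr: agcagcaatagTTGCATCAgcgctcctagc
Asns: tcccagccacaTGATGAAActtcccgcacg
Pycr1: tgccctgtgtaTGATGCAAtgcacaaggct
Nupr1: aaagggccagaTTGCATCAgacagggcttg
Atf3: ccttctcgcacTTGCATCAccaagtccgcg
Chac1: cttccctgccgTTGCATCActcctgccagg
Tars: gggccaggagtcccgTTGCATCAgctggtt

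In GRCm38.p6 these stretches lie at chr19:27216809-27216838 (Vldlr, plus strand), chr6:7693214-7693243 (Asns, minus strand), chr11:120643833-120643862 (Pycr1, minus strand) and chr7:126625562-126625591 (Nupr1, minus strand). The other 3 lie at chr1:191183425-191183454 (Atf3, minus strand), chr2:119351038-119351067 (Chac1, plus strand) and chr15:11399659-11399688 (Tars, minus strand). Members with and without the letters were found among both the called and the uncalled genes. Of the 11 carriers, 2 rose, 0 fell and 9 did not pass the test, with a median log2 fold change of 0.26. That median is the value of Atf3, which had at most 6 reads in a library. Without Utx KO replicate 2 the log2 fold change of Atf3 was −0.07. Of the 21 members without the letters in their windows, 6 rose, 1 fell and 14 did not pass, with a median of 0.08. Whether carriers and these members differ in their shift was not tested. Atf5, Cebpb, Ddit3, Ddit4, Phgdh and Sars rose without these letters in the searched windows, which says nothing about elements elsewhere.

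**Figure D2:**
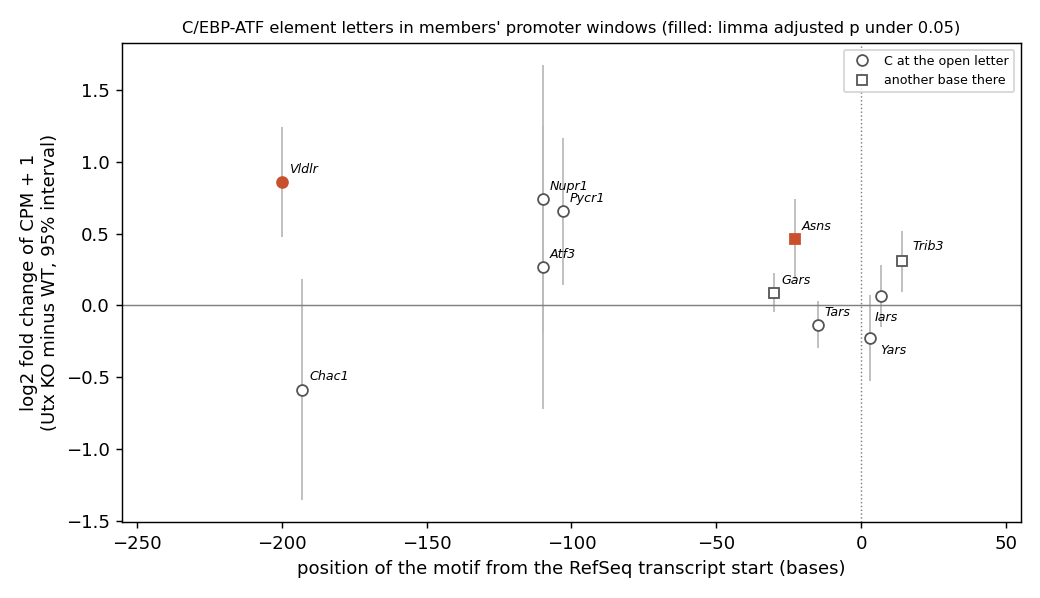
Position of the C/EBP-ATF letters from the RefSeq transcript start in bases (x axis, negative before the start) against the log2 fold change of CPM + 1 (y axis, Utx KO minus WT, with 95% interval) for the 11 tested members found to carry them. Circles have C at the open letter, squares another base, and the filled points are Vldlr at 0.86 and Asns at 0.46.

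The kinases and the phosphatase subunit at the head of the pathway gave 0 calls among 3. Eif2ak3 (PERK) was at 21.8, 22.6 and 25.7 CPM in WT, against 25.4, 23.4 and 21.6 CPM in Utx KO. Eif2ak4 (GCN2) was at 14.2, 18.4 and 14.8 CPM in WT, against 19.1, 18.3 and 14.2 CPM in Utx KO. The groups overlapped for both. Ppp1r15a (GADD34), the stress-induced subunit that directs a phosphatase to eIF2, was at 19.0, 11.1 and 9.30 CPM in WT, against 16.7, 14.3 and 11.1 CPM in Utx KO, so its lowest and its highest value were both in WT. The 95% intervals of the log2 fold changes were −0.35 to 0.37 for Eif2ak3, −0.33 to 0.55 for Eif2ak4 and −0.40 to 0.67 for Ppp1r15a. The upper bounds still allow a change of the size called for Phgdh.

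Atf4 RNA was abundant and close to level between genotypes. It was at 716, 684 and 687 CPM in WT, against 763, 689 and 669.5 CPM in Utx KO, and the Utx KO values enclosed all WT values. The log2 fold change was 0.02 (95% interval −0.09 to 0.13, limma adjusted p = 0.868), and its sign turned to −0.03 without Utx KO replicate 1.

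Of 7 transcription factors in the set, 3 rose (Atf5, Cebpb and Ddit3) and 0 fell, where 5.28% of all tested genes were called higher and 5.51% lower. Atf5 (ENSMUSG00000038539, chromosome 7, 44812256 to 44816658 in GRCm38), a factor that like ATF4 is translated preferentially under stress, was at 6.72, 5.53 and 3.83 CPM in WT, against 11.9, 12.6 and 11.7 CPM in Utx KO. Every Utx KO library lay above every WT library, on 7 to 17 reads in WT and 19 to 30 in Utx KO. The fitted log2 difference was 1.07 (SE 0.28, limma adjusted p = 0.0129; the ratio of mean CPM was 2.25).

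Cebpb (ENSMUSG00000056501, chromosome 2, 167688915 to 167690418), a C/EBP factor that can pair with ATF4, was at 6.72, 9.22 and 7.11 CPM in WT, against 17.1, 14.9 and 17.9 CPM in Utx KO. All Utx KO values were above all WT values, by a fitted log2 difference of 1.03 (SE 0.24, limma adjusted p = 0.00564). Ddit3 (CHOP; ENSMUSG00000025408, chromosome 10, 127290774 to 127296288), a C/EBP family member induced by ATF4 and known for promoting death under lasting stress, was at 29.6, 42.9 and 50.3 CPM in WT, against 57.2, 82.2 and 73.5 CPM in Utx KO. Its fitted log2 difference was 0.80 (SE 0.16, limma adjusted p = 0.00138). Within each genotype replicate 1, which also had the highest read total of its genotype, held the lowest Ddit3 value. The part of read depth in this was not tested.

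The other 3 factors did not pass. Cebpg, another dimer partner of ATF4, was at 51.4 to 54.6 CPM in WT, against 57.1 to 62.4 CPM in Utx KO, without overlap but with a limma adjusted p of 0.390. Nupr1, a stress-induced chromatin-associated protein, was at 0.547 to 3.56 CPM in WT, against 1.71 to 6.36 CPM in Utx KO. Atf3, an early stress-induced repressor, was at 0.791 to 2.30 CPM in WT, against 0.397 to 3.43 CPM in Utx KO. Both rested on at most 16 reads in a library, and their groups overlapped.

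The call of Ddit3 was kept under all 16 alternative settings (adjusted p from 0.000255 to 0.0219). Cebpb lost its call with DESeq2 alone (adjusted p = 0.0722, where the lowest over the alternatives was 0.00256), and Atf5 lost it with DESeq2 (0.153), without WT replicate 3 (0.0630) and without Utx KO replicate 2 (0.0523; lowest 0.00738). Ddit3 overlaps Mars on the opposite strand, Cebpb overlaps Tmem189 and Atf5 overlaps Nup62 and Il4i1, also on the opposite strand, and the sources used here do not say whether reads were counted by strand.

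**Figure D3:**
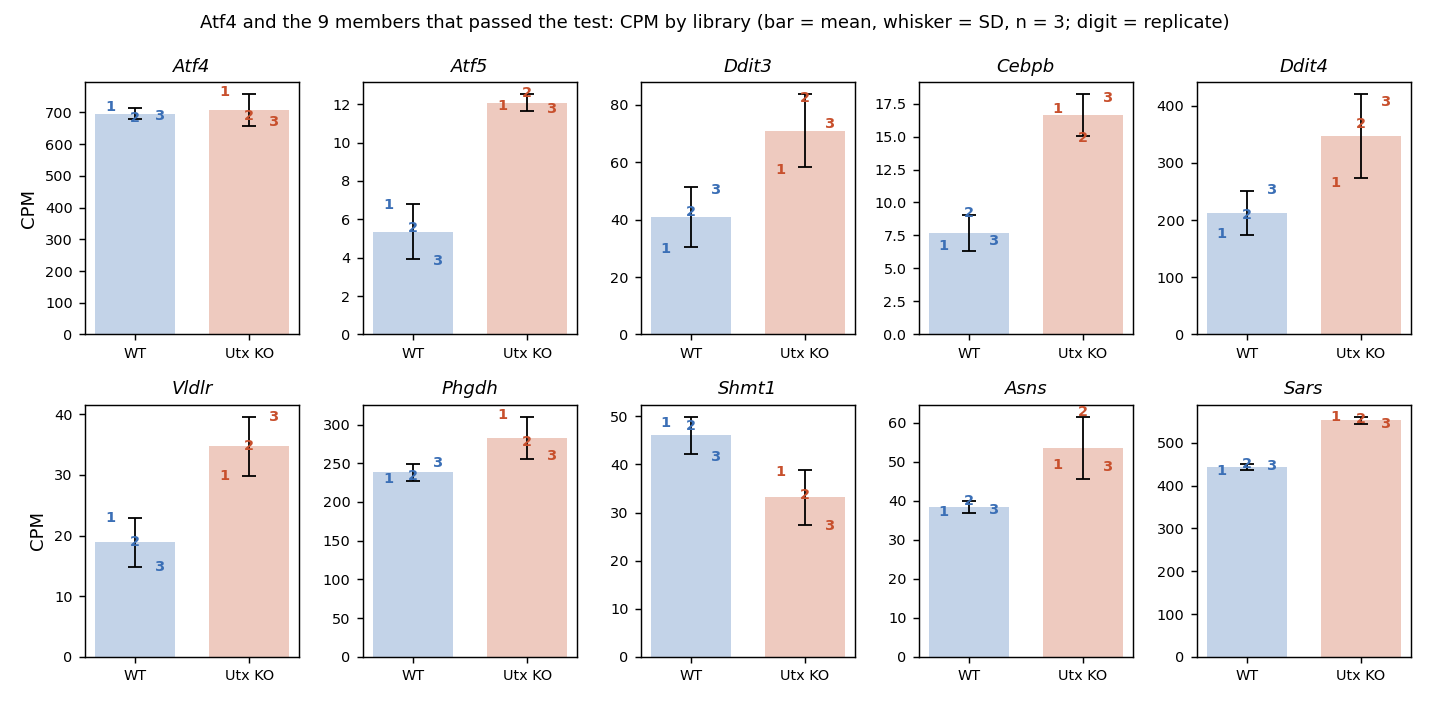
CPM (y axis, from 0, with a scale for each gene) of Atf4 and the 9 members that passed the test, in WT (blue) and Utx KO (orange); bars are means, whiskers are SD (n = 3) and digits mark the replicates. The groups overlap for Atf4 and for none of the other genes, and Sars shows the smallest spread relative to its mean, at 443 ± 7.95 and 553 ± 7.91 CPM.

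Of 6 tested stress effectors, 2 rose (Ddit4 and Vldlr) and 0 fell, and Trib3, Chac1, Sesn2 and Eif4ebp1 did not pass the test. The shares over all tested genes were 5.28% higher and 5.51% lower. Ddit4 (REDD1; ENSMUSG00000020108, chromosome 10, 59949669 to 59951834), an inhibitor of the growth kinase complex mTORC1, was at 176, 209.7 and 253 CPM in WT, against 265, 369 and 406 CPM in Utx KO. The lowest Utx KO value was only slightly above the highest WT value, and replicate 1 was again the lowest of each genotype. The fitted log2 difference was 0.69 (SE 0.12, limma adjusted p = 0.000197). Vldlr (ENSMUSG00000024924, chromosome 19, 27216484 to 27254231), the very low density lipoprotein receptor, was at 22.9, 18.9 and 14.8 CPM in WT, against 29.8, 34.8 and 39.5 CPM in Utx KO. Its groups were well apart, with a fitted log2 difference of 0.86 (SE 0.19, limma adjusted p = 0.00267).

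Trib3, a pseudokinase that ATF4 and CHOP induce and that feeds back on ATF4, was at 68.8, 66.4 and 65.1 CPM in WT, against 79.8, 87.4 and 81.5 CPM in Utx KO. Its groups did not overlap, but it narrowly missed the threshold (fitted log2 difference 0.31, SE 0.10, limma adjusted p = 0.0567; 0.0522 to 0.376 over the alternatives). Chac1, which degrades glutathione and is among the ATF4 targets most used as a marker of this response, was at 7.91, 9.68 and 6.57 CPM in WT, against 5.96, 9.71 and 1.85 CPM in Utx KO. The values overlapped, and the lowest of them, in Utx KO replicate 3, stood on 3 reads (log2 fold change −0.59, 95% interval −1.36 to 0.19).

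Sesn2 (sestrin 2), a leucine sensor that restrains mTORC1, was at 21.4, 18.9 and 17.0 CPM in WT, against 17.1, 16.6 and 10.5 CPM in Utx KO. Its groups overlapped narrowly, with a fitted value opposite in sign to that of Ddit4 (−0.38, limma adjusted p = 0.333). Eif4ebp1, which encodes the mTORC1-controlled translation repressor 4E-BP1, was at 78.2 to 95.9 CPM in WT, against 88.5 to 96.9 CPM in Utx KO. The call of Vldlr was kept under all 16 alternatives (adjusted p from 0.000701 to 0.0330), and that of Ddit4 was lost with DESeq2 (0.0665) and with robust variance moderation (0.184; lowest of the alternatives 5.55e-07).

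Enzymes of serine, glycine and one-carbon metabolism split, with 1 rise and 1 fall among 7. These counts are too small to set apart from the 5.28% and 5.51% of all tested genes. Phgdh (ENSMUSG00000053398, chromosome 3, 98313170 to 98339990), the first enzyme of serine synthesis from glucose, was at 230.1, 234 and 251 CPM in WT, against 313, 277 and 259 CPM in Utx KO. The groups were adjacent without overlap (fitted log2 difference 0.24, SE 0.07, limma adjusted p = 0.0305). Of its 3' end sequence, 49.4% of the pieces searched were also found in other genes, so reads could be split among copies and the value is uncertain. Psat1, the next enzyme of the route, was at 137, 140.1 and 128 CPM in WT, against 168, 142 and 154 CPM in Utx KO. Its groups did not overlap either, but it did not pass (0.19, limma adjusted p = 0.167). Psph, which completes the route, was at 23.0 to 33.6 CPM in WT, against 24.7 to 29.1 CPM in Utx KO, with overlapping groups.

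Shmt1 (ENSMUSG00000020534, chromosome 11, 60788104 to 60811718), the cytosolic enzyme that interconverts serine and glycine, was the member that fell. It was at 48.6, 47.9 and 41.6 CPM in WT, against 38.5, 33.7 and 27.2 CPM in Utx KO, without overlap (fitted log2 difference −0.47, SE 0.15, limma adjusted p = 0.0422). Its mitochondrial counterpart Shmt2 was at 145, 139 and 142 CPM in WT, against 158, 152 and 139 CPM in Utx KO. Mthfd2, the mitochondrial folate enzyme that marks activated T cells, was at 263, 296 and 269 CPM in WT, against 295, 271 and 272 CPM in Utx KO. Both groups overlapped for each of these genes, and the 95% intervals of their log2 fold changes were narrow, at −0.09 to 0.24 for Shmt2 and −0.12 to 0.16 for Mthfd2. Mthfd1l, which acts after Mthfd2 in the mitochondrion, was at 166 to 191 CPM in WT, against 166 to 185 CPM in Utx KO.

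Both calls of this group were fragile. That of Phgdh was lost with DESeq2 (adjusted p = 0.114) and when WT replicate 1 (0.116) or 2 (0.114) or Utx KO replicate 1 (0.146) or 2 (0.0659) was left out (lowest of the alternatives 0.0136). That of Shmt1 was lost with DESeq2 (0.287), with a pseudocount of 0.1 (0.0504) and when WT replicate 1 (0.150) or 2 (0.153) or Utx KO replicate 2 (0.0826) or 3 (0.193) was left out (lowest 0.0169), and it overlaps Smcr8 on the opposite strand.

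Of the genes for asparagine and proline synthesis, 1 of 3 rose, too few genes to set apart from the 5.28% of all tested genes. Asns (ENSMUSG00000029752, chromosome 6, 7675169 to 7693254), asparagine synthetase and a classic ATF4 target, was at 37.2, 40.1 and 37.8 CPM in WT, against 49.2, 62.8 and 48.8 CPM in Utx KO. WT values were tightly grouped and below all Utx KO values, of which replicate 2 stood highest (fitted log2 difference 0.46, SE 0.14, limma adjusted p = 0.0263). The call was lost with DESeq2 (0.202), without each of WT replicates 1 (0.0855), 2 (0.0560) and 3 (0.0701) and without Utx KO replicate 2 (0.171; lowest of the alternatives 0.0197). Pycr1, the last enzyme of proline synthesis, was at 8.70, 7.37 and 10.9 CPM in WT, against 16.7, 12.0 and 15.4 CPM in Utx KO, without overlap, but did not pass (0.65, limma adjusted p = 0.0992). Aldh18a1, the first enzyme of that route, was at 26.3 to 30.8 CPM in WT, against 22.3 to 29.4 CPM in Utx KO.

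Of the 12 tRNA synthetases, which charge tRNAs with their amino acids, 1 rose and 0 fell. These counts are too small to set apart from the 5.28% and 5.51% of all tested genes. Sars (ENSMUSG00000068739, chromosome 3, 108424865 to 108445209), which charges serine, was at 435, 451 and 445 CPM in WT, against 559, 556 and 544 CPM in Utx KO. The replicates of each genotype lay close together and the groups far apart for their spread. The fitted log2 difference was 0.32 (SE 0.05, limma adjusted p = 0.000158), a small difference that was called under all 16 alternatives (adjusted p from 2.01e-05 to 0.00165). Aars, for alanine, was at 65.4 to 74.4 CPM in WT, against 79.1 to 90.2 CPM in Utx KO, without overlap (0.27, limma adjusted p = 0.120), and 50% of its 3' end pieces were also found in other genes; it overlaps Exosc6 on the same strand.

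The other 10 synthetases did not pass, and 9 of them had overlapping groups. Their log2 fold changes ran from −0.23 (Yars, for tyrosine) to 0.16 (Cars, for cysteine), and the 95% interval of Yars, −0.53 to 0.07, allows a fall larger than the rise called for Sars. Tars, for threonine, was the exception on overlap, at 158 to 169 CPM in WT, against 146 to 154 CPM in Utx KO (−0.13, limma adjusted p = 0.329). The abundant Eprs, for glutamate and proline, was at 446, 498 and 449 CPM in WT, against 441, 502 and 520.0 CPM in Utx KO. Nars, for asparagine, was at 412 to 462 CPM in WT, against 432 to 452 CPM in Utx KO, beside the rise of Asns. Gars (glycine), Wars (tryptophan), Mars (methionine), Iars (isoleucine) and Lars (leucine) had fitted values from −0.16 to 0.09.

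**Figure D4:**
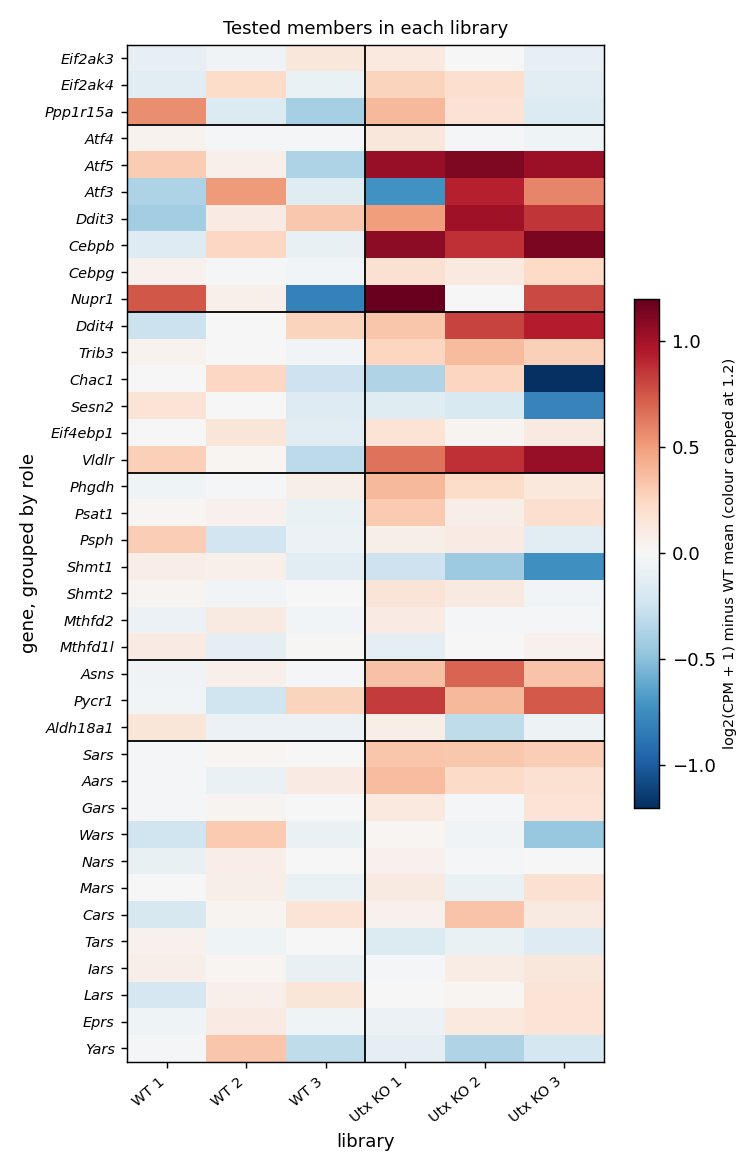
Log2(CPM + 1) of each tested member minus its mean over the WT libraries, by library (x axis) and gene (y axis, grouped by role), with red for higher and blue for lower and the colour capped at 1.2. Atf5, Cebpb, Ddit3, Ddit4, Vldlr and Asns are red in all 3 Utx KO libraries, while Atf4, Mthfd2, Nars and Mthfd1l are near white throughout.

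The libraries differed in how far the members that rose were shifted. Over the 8 of them the median of log2(CPM + 1) minus the WT mean was 0.45 in Utx KO replicate 1, 0.84 in replicate 2 and 0.90 in replicate 3, and lay between −0.05 and 0.04 in the WT libraries. These 8 were chosen by the test, so their medians are a description. Over the 29 members that were not called, the same median lay between 0.04 and 0.10 in the Utx KO libraries and between −0.05 and 0.03 in WT. The summed level of all 39 genes was 4612, 4799 and 4703 CPM in WT, against 5185, 5170.0 and 5191 CPM in Utx KO. Ddit4 (133.9 CPM higher on average) and Sars (109.6 CPM higher) made up much of that difference, and without them the sums were 4048 ± 78.4 CPM in WT, against 4282 ± 68.0 CPM in Utx KO (SD, n = 3).

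Other genes of the pathway, from 7 lists that are not part of the set, gave 4 rises and 2 falls among 106 tested genes. Of all tested genes, 5.28% were called higher and 5.51% lower. The counts of single lists are too small to set apart from these shares. Among the rises was Gldc, which entered the test only through the Utx KO libraries. Other eIF2 kinases, eIF2 subunits and the exchange factor eIF2B gave 0 calls among 13 with limma at an adjusted p under 0.05 (2 at an unadjusted p under 0.05). The haem-regulated kinase Eif2ak1 was at 68.9 ± 3.32 CPM in WT, against 53.5 ± 7.72 CPM in Utx KO without overlap and narrowly missed (limma adjusted p = 0.0533). It was called lower under 6 of the 16 alternatives, among them edgeR and limma-voom, with adjusted p from 0.0213 to 0.292 over all of them.

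Of 20 tested genes of the unfolded protein response of the endoplasmic reticulum, 0 rose and 1 fell, counts too small to set apart from the 5.28% and 5.51% of all tested genes. The fitted value was above 0 for 6 of the 20, against 51.0% of all tested genes, with a median log2 fold change of −0.10. The one that fell was Hsp90b1 (GRP94), a chaperone of the endoplasmic reticulum, at 1079, 1091 and 1020.0 CPM in WT, against 885, 826 and 855 CPM in Utx KO (−0.31, limma adjusted p = 4.16e-05), and its call was kept under all 16 alternatives. It overlaps other gene models on both strands.

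Among the remaining cytosolic synthetases and their scaffold proteins, 1 of 11 rose. That was Kars, for lysine, at 187, 193 and 186 CPM in WT, against 233, 214 and 224 CPM in Utx KO (log2 fold change 0.24, limma adjusted p = 0.0253). Its call was lost with DESeq2 (0.149) and without each library but Utx KO replicate 2 (up to 0.0896). Mitochondrial synthetases, which charge tRNAs in the mitochondrion, gave 0 calls among 17 with limma, and 1 at an unadjusted p under 0.05.

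Of 19 tested further one-carbon and amino acid enzymes, 1 rose. Gldc, the glycine decarboxylase of the mitochondrial glycine cleavage system, had 1 read in all WT libraries together and 13, 11 and 7 reads in the Utx KO libraries, where it was at 5.16, 6.28 and 4.32 CPM. Pooled over a genotype, CPM was 34.4 times as high in Utx KO (95% exact interval of the counts 5.73 to 1401), and the limma adjusted p was 0.000280 (up to 0.00832 over the alternatives that gave a value). Gldc reached 1 CPM only in the 3 Utx KO libraries, so it entered the test through the group where it is high, and its call is no independent support for a rise. Aldh1l2, a mitochondrial folate enzyme, entered the test in the same way, had 1 read in WT and 10 in Utx KO (ratio 11.1, interval 1.58 to 481) and did not pass (limma adjusted p = 0.0889).

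Of 10 amino acid transporters, 1 fell and 0 rose. Slc7a5 (LAT1), the carrier of large neutral amino acids such as leucine and itself an ATF4 target, was at 149, 128 and 138 CPM in WT, against 62.0, 60.5 and 54.4 CPM in Utx KO. It fell (log2 fold change −1.22, limma adjusted p = 4.8e-09), opposite in direction to the 8 members that rose, and was called under all 16 alternatives. Its partner chain Slc3a2 was at 227 and 255 CPM on average and did not pass (limma adjusted p = 0.150).

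Genes of mTORC1 and its nutrient sensing, which include the complex and its regulators as well as sensors, gave 2 rises and 0 falls among 16. These counts are too small to set apart from the 5.28% and 5.51% of all tested genes. Castor1, an arginine sensor that restrains mTORC1, was at 11.5, 8.76 and 13.1 CPM in WT, against 19.5, 23.4 and 17.9 CPM in Utx KO (log2 fold change 0.82, limma adjusted p = 0.0167). Rragd, a Rag GTPase that brings mTORC1 to the lysosome, was at 3.95, 2.76 and 3.28 CPM in WT, against 7.94, 12.0 and 6.79 CPM in Utx KO (1.17, limma adjusted p = 0.0175). Its values rested on 6 to 10 reads in a WT library and 11 to 21 in a Utx KO library. Neither gene's groups overlapped. Both calls were lost with DESeq2 (0.144 and 0.153), without WT replicate 2 (0.0978 and 0.0695) and without Utx KO replicate 2 (0.0974 and 0.120).

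**Figure D5:**
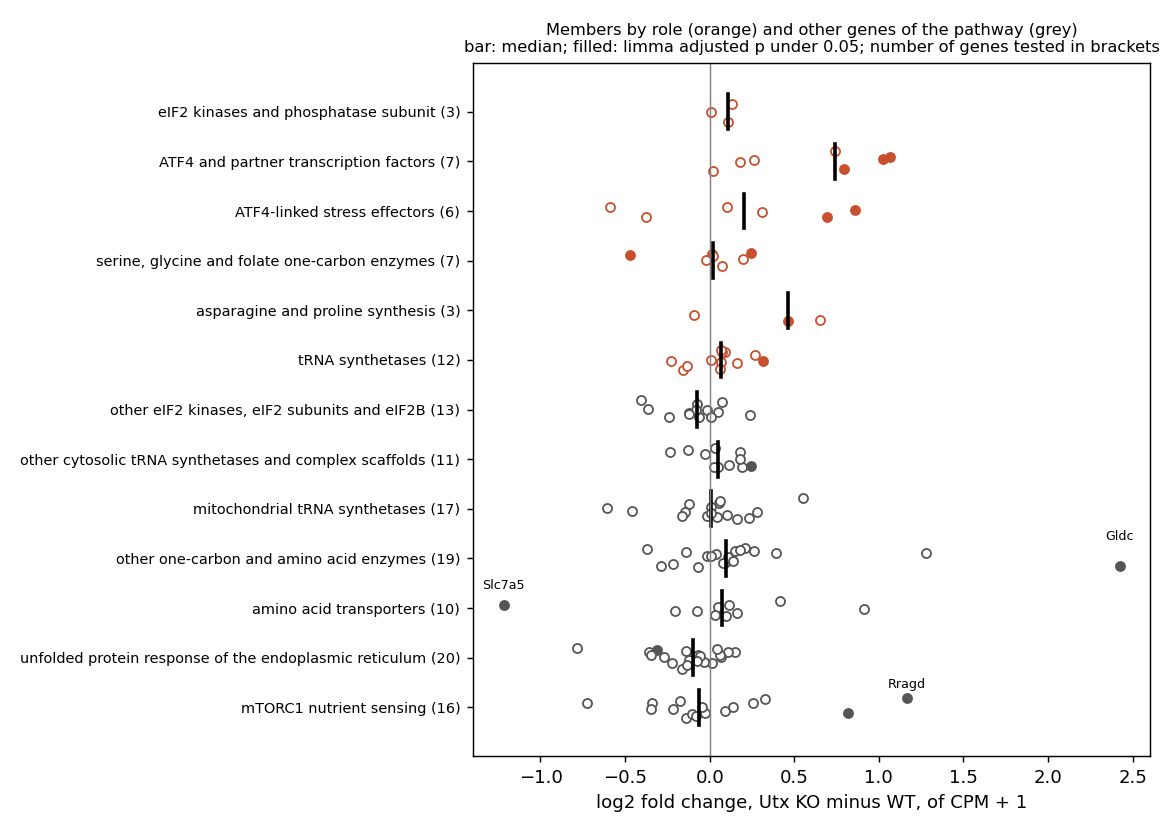
Log2 fold change of CPM + 1 (x axis, Utx KO minus WT) of each tested gene in the 6 roles of the set (orange) and in 7 lists of other pathway genes (grey), with the median of each list as a bar and filled points for a limma adjusted p under 0.05. The transcription factors of the set have a median of 0.74, the value of Nupr1, which did not pass and whose groups overlap. Atf5, Cebpb and Ddit3 lie above it, and Atf4, Cebpg and Atf3 lie at 0.02 to 0.26. The tRNA synthetases have a median of 0.07. Gldc at 2.42 and Slc7a5 at −1.22 stand farthest out. Gldc entered the test only through the Utx KO libraries, and its value depends on the pseudocount (4.83 with a pseudocount of 0.1).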

How the data were processed

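The authors deposited 1 table per library with CPM values for 25655 Ensembl genes, per the file headers; all columns share 1 total. The builds GRCm38 and mm10 are named in the submitters' processing notes; for the aligner, counting tool and strand setting, no name was found in the labels or headers. Dividing by the value of 1 read gave whole reads for 100.0% of values above 0 (tolerance 0.001 reads). A count of 0 still allows 3 reads, or 1.19 to 1.85 CPM by library; such limits and count intervals cover counting error only. Symbols were matched for 25600 genes; positions are from GENCODE M21. Every pair of replicates differed by more than sampling noise, with a chi-square of 1.33 to 2.00 for each degree of freedom. That does not show whether replicates are separate animals. The 6 libraries were treated as separate samples. A second Ddit3 identifier, at 0 in all libraries, was set aside.

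Genotypes were compared with limma-trend (limma 3.58.1, R 4.3.3) on log2(CPM + 1), two-sided, on genotype alone. It ran over the 10590 genes that reached 1 CPM in 3 libraries or more, with p adjusted by Benjamini-Hochberg (threshold 0.05). The pseudocount understates changes of low genes. There were 16 alternatives, among them edgeR 4.0.16 (8832 genes tested, 1106 called) and DESeq2 1.42.0 on the recovered reads. In simulated counts for this comparison (10454 genes tested), limma recovered 62% of genes changed 1.5-fold and 84% changed 2-fold. The changed genes were drawn only from those of higher mean CPM, with 1.5 as the smallest fold. These shares therefore do not cover low genes such as Atf5, Atf3, Nupr1, Chac1, Gldc and Rragd. Nor do they cover smaller differences such as those of Phgdh, Sars and Asns. The simulation also changed fewer genes than the 1142 called in the data, so the shares need not hold at that number. The promoter search covered 32 of 38 tested members: 5 had no matching window, and the promoter of 1 more is not reported here. 3' end sharing is the share of 50-nt pieces of the last 300 nt of coding transcripts found in other genes. The members, lists and tests were chosen with earlier results of these data known. All members are named; of other lists, called genes (up to 5 with the lowest adjusted p). Eif2ak1, Aldh1l2 and Slc3a2 were named after their values were seen.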

Additional observations from a re-analysis of the deposited data

How the results depend on the processing

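Under the 16 alternatives, all genes changed numbered 1142 in the main fit, 551 with DESeq2 and 754 to 1042 when a library was left out (754 without WT replicate 2). Members that rose numbered 3 with DESeq2 and 5 to 8 when a library was left out (5 without Utx KO replicate 2), against 8. Members that fell numbered 0 with DESeq2 and with a pseudocount of 0.1, and 0 to 1 when a library was left out, against 1. The cause was not tested. The median log2 fold change of the members moved between 0.08 and 0.11 when a library was left out. Between samples of equal replicate number, deviations from the group means correlated at −0.01 to 0.01 over all tested genes. Such a correlation cannot show whether samples were paired in preparation, which the labels do not state. With the replicate block 1065 genes changed and the same 9 members were called (8 higher, 1 lower). Signs turned only for members that did not pass. When a library was left out, log2 fold changes ran from −0.0982 to 0.165 for Psph (also −0.0038 with edgeR and −0.0077 with DESeq2), −0.0476 to 0.0774 for Eif2ak3, −0.0198 to 0.0711 for Mthfd2, −0.0745 to 0.028 for Mthfd1l, −0.0332 to 0.0495 for Nars, −0.0404 to 0.132 for Lars, −0.276 to 0.0023 for Wars, −0.064 to 0.414 for Ppp1r15a, −0.0336 to 0.0609 for Atf4, −0.0716 to 0.760 for Atf3 and −0.181 to 0.0115 for Aldh18a1. Depth limits Atf3, Nupr1, Chac1, Gldc, Aldh1l2 and Rragd, with at most 21 reads in a library.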
